A study of Arabidopsis thaliana with 18 samples.

Results

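A pair of insertion alleles of TRANSPARENT TESTA GLABRA1 (TTG1), ttg1-23 (SALK_012389) and ttg1-24 (SAIL_1175_C01), were compared by RNA-seq with 14 other Arabidopsis thaliana lines carrying insertions at other transparent testa loci. The comparison lines were ban-6 (SALK_052000) and ban-7 (SAIL_874_C01), tt1-4 (SALK_018552) and tt1-5 (SALK_109926), tt3-3 (SAIL_649_G09) and tt3-4 (SAIL_1180_D08), tt5-3 (SAIL_641_E10) and tt5-4 (SALK_023403), and tt8-7 (GK-089H05), tt8-8 (SALK_010879), tt8-9 (SALK_137974), tt8-10 (SALK_205661), tt8-11 (SALK_206210) and tt8-12 (SAIL_239_C11). The members are the 2 ttg1 libraries, set against 14 libraries, out of 18 libraries in the series; the 2 wild-type Col-0 libraries were not used. RNA came from seedlings shaken in sucrose medium under continuous light, a condition the submitters abbreviate AIC. Each line was sequenced once, so the replicates of a side are different lines, and the p-values measure the spread between lines. The submitters call the lines putative mutants, and the zygosity of the insertions was not given in the sources used here. All lines on both sides carry a transparent testa insertion, so no value below is a difference from wild type.

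TTG1 is a WD40-repeat protein that holds together complexes of a MYB and a basic helix-loop-helix (bHLH) protein. With the bHLH proteins TT8, GL3 and EGL3 and MYB proteins such as PAP1, these complexes switch on the late genes of anthocyanin synthesis; with GL1 or WER they specify trichomes and the hairless cells of the root epidermis, and in the seed coat they act in tannin and mucilage formation. The comparison lines are hit elsewhere in the same system: TT8 is one of the bHLH partners, TT1 a zinc finger regulator of the seed coat, TT3 (DFR) and TT5 (CHI) are enzymes of the flavonoid pathway and BAN is the anthocyanidin reductase of seed coat tannins. The comparison therefore asks what sets loss of the shared WD40 subunit apart from lesions in a single partner or enzyme.

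TTG1 itself (AT5G24520, chromosome 5, 8370317 to 8372847 in the TAIR10.1 annotation) was read in ttg1-23 and not in ttg1-24. The library of ttg1-23 held 429 TTG1 counts, which is 15.5 CPM (exact Poisson interval 14.1 to 17.1), and that of ttg1-24 held 0, which allows up to 0.410 CPM at a floor of 3 counts per library. CPM here are counts per 1000000 scaled by TMM factors, and the intervals and floors cover counting error only. The 14 other lines ranged from 21.7 to 28.6 CPM with a median of 25.8, so both alleles lay below every other line, ttg1-24 at least 62.5-fold below their mean. In ttg1-24 alone TTG1 was lower (adjusted p = 1.26e-09); over both alleles it did not pass the threshold (log2 fold change −1.62, SE 0.62, adjusted p = 0.18). The counts on TTG1 in ttg1-23 do not say which part of the transcript they come from.

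The loss in ttg1-24 reached the neighbours of TTG1. A run of 5 loci in chromosome order, from AT5G24490 to DMR6 (AT5G24530), lay under 25% of the lowest other line, and the same 5 lay under 10%. AT5G24490, annotated as a 30S ribosomal protein, had 1 count in ttg1-24 against 12.9 CPM in ttg1-23 and 6.30 to 23.1 CPM in the other lines. AT5G24500 had 0 counts in ttg1-24 against 24.3 CPM in ttg1-23 and 16.7 to 28.1 CPM elsewhere, and DMR6, an oxygenase that acts on salicylic acid, had 1 count against 44.5 CPM in ttg1-23 and 12.9 to 49.4 CPM elsewhere. None of these 3 neighbours was low in ttg1-23. The remaining locus, AT5G24510, was at 0 in ttg1-24 but also low in the other lines, at 0.22 to 1.604 CPM. Because 0 counts in ttg1-24 allow up to 0.410 CPM, this depth cannot place AT5G24510 under 25% or 10%. The nearest well measured loci beyond the run were not low: PRR5, a clock regulator, stood at 169.5 CPM in ttg1-24 (others 59.1 to 184.1) and AT5G24570 at 6.98 CPM (others 5.12 to 17.8). Closer to the run on the DMR6 side, BGLU32 had 15 counts in ttg1-24, or 2.05 CPM, above the 0.06 to 1.36 CPM of the other lines. BGLU31, next to DMR6, had 3 counts in ttg1-24, too few to place that end more closely. On the other side, AT5G24480 and AT5G03755 had 0 counts in every library used and cannot place the end of the loss. AT5G24490 and AT5G24500 overlap on opposite strands by 159 bases, and the strand setting of the counting was not given. What the missing neighbours contribute to any other difference of ttg1-24 was not tested; results seen in both alleles are therefore given first.

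**Figure D1:**
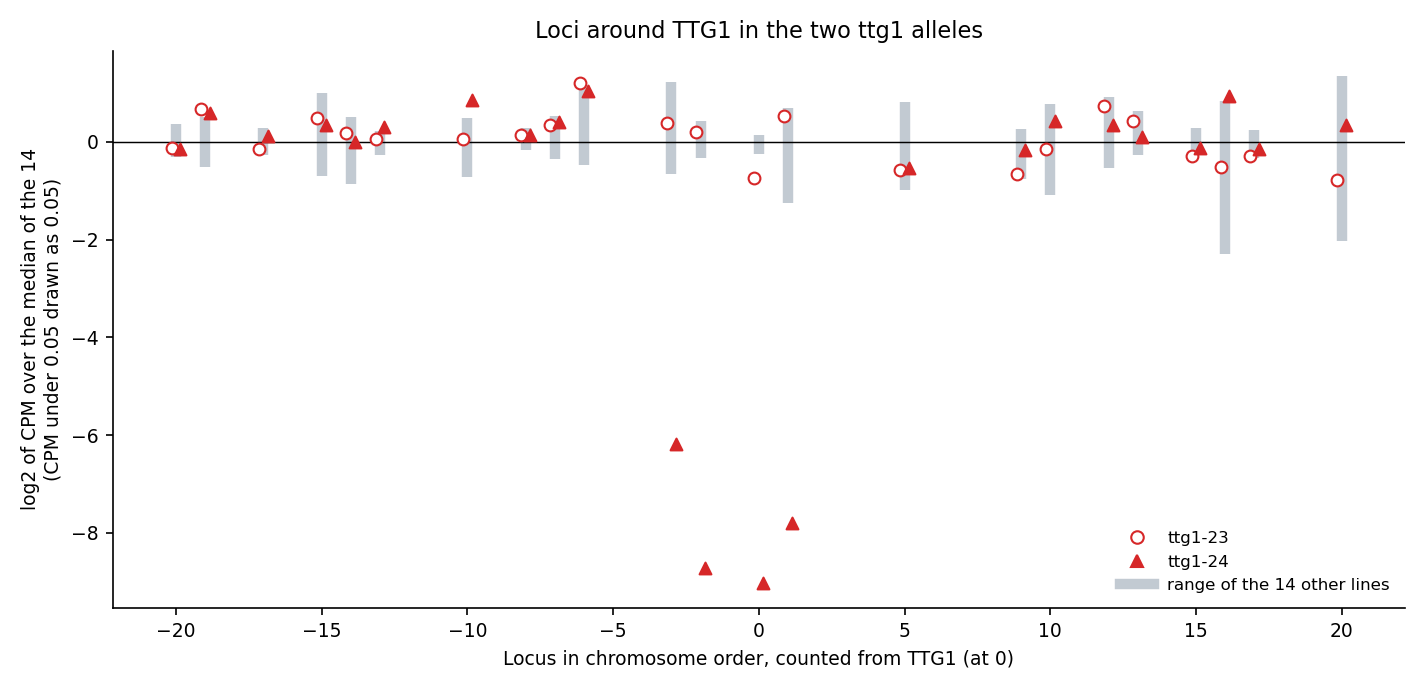
Loci around TTG1 in chromosome order (horizontal axis, counted from TTG1) against the log2 ratio of the CPM in each ttg1 library to the median of the 14 other lines, for loci with a median of at least 1 CPM; grey bars span the 14 lines. In ttg1-24 (triangles) AT5G24490, AT5G24500, TTG1 and DMR6 drop far below the grey bars, and in ttg1-23 (open circles) only TTG1 of these 4 lies below its bar.

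Library totals on AT1G to AT5G loci ran from 8057534 counts in ttg1-24, the shallowest, to 27145377 in tt3-4, with 26961420 in ttg1-23. Of 32547 loci, 20690 passed the filter on low counts and were tested. Light-harvesting genes differed widely in level. LHCB1.1 lay between 0 and 0.30 CPM in every library, and LHCB2.1 reached at most 1.15 CPM. LHCB4.1 had 91.6 and 121.5 CPM in ttg1 against 26.5 to 111.9 CPM. The Rubisco small subunit gene RBCS1A had 259.5 and 188 CPM in ttg1 against 84.2 to 319 CPM. The seed storage gene CRA1, a cruciferin, ranged from 25.8 to 6361 CPM over the 14 other lines. Of the photosynthesis list 0 of 11 tested members were called changed, of the endodermis and suberin list 0 of 8, and of the heat shock list 0 of 10. All 11 photosynthesis members had positive log2 fold changes, with a median of 0.73. By the edgeR quasi-likelihood test 4 of them had an unadjusted p under 0.05. PSBP1 was above the range in both alleles, at 8.86 and 10.4 CPM against 2.80 to 8.34 CPM. The medians of the other 2 lists were 0.32, with 7 of 8 positive, and −0.22, with 2 of 10 positive.

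Against the 14 other lines 275 genes changed in ttg1, 192 higher and 83 lower (edgeR quasi-likelihood test, Benjamini-Hochberg adjusted p under 0.05), which is 1.33% of the genes tested, 0.928% higher and 0.401% lower. Of these, 210 (1.01%) had both alleles outside the range of all 14 lines on the same side, 127 higher and 83 lower, and are called shared. Without regard to the test, both alleles lay above all 14 lines for 2.49% of the genes and below them for 4.3%. All 83 falls were shared; of the 192 rises 127 were. The median log2 fold change of all genes tested was −0.02. The number of calls depended on single libraries: it was 0 without ttg1-24 and 1076 without tt8-7, and fell to 137 without tt3-4, 148 without tt8-9, 144 without tt8-10, 154 without tt8-11 and 144 without tt8-12. The library of tt8-7 was the nearest of the 14 to the ttg1 alleles for 48 of the 127 shared rises and 35 of the 83 shared falls. The shared count ran from 108 without tt3-4 to 932 without tt8-7, and was 114 to 121 without tt8-9, tt8-10, tt8-11 or tt8-12. All 275 calls and all 210 shared ones were also among those made without tt8-7. DESeq2 called 1136 genes, 509 higher and 627 lower, so that falls outnumbered rises, with 266 of the 275 among them.

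The deepest falls were in the late anthocyanin genes, which turn dihydroflavonols into coloured, decorated and vacuole-bound anthocyanins. Of 11 listed members, all tested, 7 fell, and the median log2 fold change of the 11 was −5.31, beside −0.02 for all genes and 0.401% of them called lower. DFR, the reductase that opens this branch, had 0.58 CPM in ttg1-23 and 0 in ttg1-24, against a lowest, median and highest of 33.6, 199.9 and 274.8 CPM in the other lines. The highest was tt3-4, and tt3-3 had 198.5 CPM. Both are lines with insertions at DFR (TT3) itself. The groups were far apart: DFR fell by 8.71 on the log2 scale (SE 1.30, adjusted p = 0.00742), and in ttg1-24 it was at least 429.1-fold below the mean of the other lines. LDOX, which makes the anthocyanidin, had 0.25 CPM in ttg1-23 and 0.14 in ttg1-24, against 19.8, 73.7 and 180.3 CPM. It fell by 8.47 (SE 1.25, adjusted p = 0.00742). GSTF12, the glutathione transferase needed to bring anthocyanin to the vacuole, had 0.36 and 0.14 CPM against 18.6, 77.3 and 148.9 CPM and fell by 8.00 (SE 1.13, adjusted p = 0.00705).

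The decorating enzymes fell with them. UGT79B1, which adds xylose to the anthocyanin glucoside, had 0.11 CPM in ttg1-23 and 0.55 in ttg1-24 against 15.5 to 108.8 CPM and fell by 7.64 (adjusted p = 0.0105). The malonyltransferase 5MAT had 0.72 and 0.41 CPM against 11.2 to 71.9 CPM and fell by 5.71 (adjusted p = 0.00924), and the 5-glucosyltransferase UGT75C1 had 1.08 and 1.23 CPM against 11.2 to 105.7 CPM and fell by 5.31 (adjusted p = 0.0247). The coumaroyltransferase 3AT1 had 2.02 and 1.78 CPM against 4.81 to 25.6 CPM and fell by 2.78 (adjusted p = 0.0275). For each of these 7 genes both alleles lay below all 14 lines. UGT75C1 and 3AT1 are common names; the annotation gives only their enzyme families, and UGT75C1 and GSTF12 overlap genes on the other strand by 230 and 108 bases.

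The other 4 members did not pass the threshold. The sinapoyltransferase SAT had 6.33 CPM in ttg1-23 and 3.15 in ttg1-24 against 9.84 to 51.1 CPM (log2 fold change −2.22, adjusted p = 0.102), and UGT78D2, the 3-glucosyltransferase that also serves flavonols, 21.3 and 22.2 CPM against 25.9 to 57.3 CPM (−1.02, adjusted p = 0.0875); both genes were below the range in both alleles. 3AT2 had 3.22 and 4.24 CPM against 3.79 to 11.1 CPM, so its groups overlapped. The glucosidase gene BGLU10 had 52.1 and 59.1 CPM, within the 32.3 to 62.5 CPM of the other lines. The 2 alleles gave close values for the list: its median log2 fold change was −5.37 in ttg1-23 and −5.19 in ttg1-24. The same 14 lines are the comparison for both. The list's count of 7 was 4 without ttg1-23, 0 without ttg1-24 and 8 without tt8-7.

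**Figure D2:**
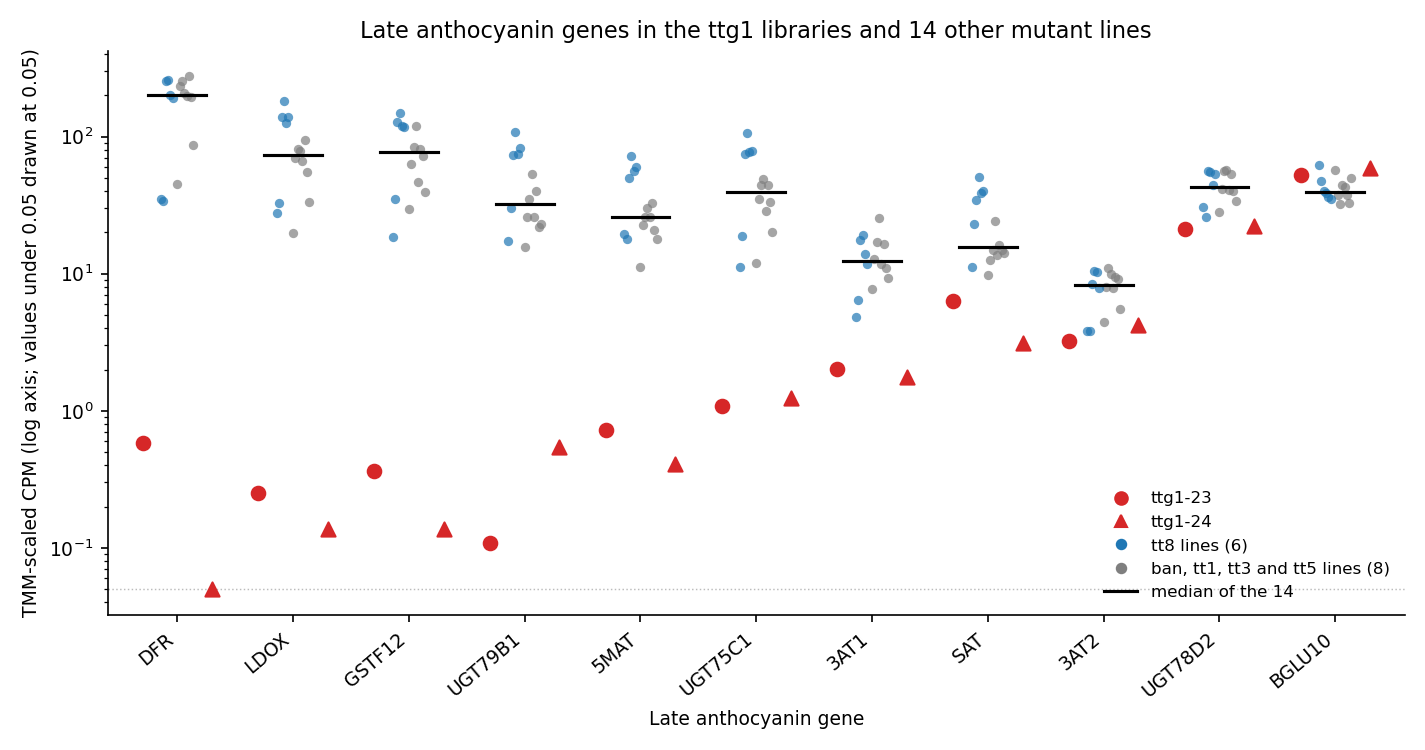
TMM-scaled CPM (vertical log axis, values under 0.05 drawn at 0.05) of the 11 late anthocyanin genes in each library: ttg1-23 (red circles), ttg1-24 (red triangles), the 6 tt8 lines (blue) and the 8 ban, tt1, tt3 and tt5 lines (grey), with the median of the 14 as a bar. From DFR to SAT, and for UGT78D2, both red points lie under every other point; 3AT2 and BGLU10 overlap the other lines.

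The tt8 lines, which carry insertions in a bHLH partner of TTG1, did not share this loss. DFR ranged from 33.6 to 257 CPM over the 6 tt8 lines and from 45.0 to 275 CPM over the 8 ban, tt1, tt3 and tt5 lines. LDOX ranged from 27.7 to 180 CPM in the tt8 lines and from 19.8 to 95.1 CPM in the 8 others. Within the tt8 lines tt8-7 and tt8-8 were low for DFR, at 34.8 and 33.6 CPM, and the other 4 ranged from 190.6 to 256.7 CPM. With the tt8 lines left out of the comparison the count of late genes that fell stayed at 7, and it was 6 against the enzyme loci ban, tt3 and tt5 alone, DFR being the gene that was then not called. TT8 counts in the tt8 lines themselves ran from 6.79 to 106.2 CPM, so the lines still yield reads from that locus.

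Promoters of 13 genes that fell were read from the TAIR10.1 genome, to show whether they hold the sites that bHLH and MYB proteins bind in general. The genes were the late anthocyanin genes and regulators called lower, GL2 and AT4G04750. Promoters of 6 of the late anthocyanin genes, and of the regulators TT8 and TTG2, are shown. Each sequence below gives the 250 bases before the annotated gene start, 5′ to 3′ on the strand of the gene. Capitals mark the bHLH core CANNTG, of which CACGTG is the palindromic case, and the MYB-type AC elements (ACCTACC, then the variant ACCAACC, then the variant ACCTAAC), searched on both strands; no pair of marked sites overlapped.
DFR (chr5:17166033-17166282, minus strand): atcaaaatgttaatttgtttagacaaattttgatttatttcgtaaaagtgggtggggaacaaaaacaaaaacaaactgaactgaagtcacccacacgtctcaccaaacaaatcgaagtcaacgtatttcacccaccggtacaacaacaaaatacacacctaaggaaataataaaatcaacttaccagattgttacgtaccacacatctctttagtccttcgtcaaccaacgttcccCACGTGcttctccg
LDOX (chr4:12006210-12006459, minus strand): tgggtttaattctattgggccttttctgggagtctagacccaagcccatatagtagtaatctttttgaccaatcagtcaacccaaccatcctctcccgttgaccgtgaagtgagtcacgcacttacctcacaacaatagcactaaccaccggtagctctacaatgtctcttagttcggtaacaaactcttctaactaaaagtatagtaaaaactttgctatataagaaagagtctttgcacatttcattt
GSTF12 (chr5:5658166-5658415, plus strand): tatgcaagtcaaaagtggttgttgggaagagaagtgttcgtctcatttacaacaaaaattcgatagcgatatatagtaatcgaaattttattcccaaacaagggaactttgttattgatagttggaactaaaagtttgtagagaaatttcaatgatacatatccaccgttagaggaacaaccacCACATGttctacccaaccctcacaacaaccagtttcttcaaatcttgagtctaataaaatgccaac
UGT79B1 (chr5:21938397-21938646, minus strand): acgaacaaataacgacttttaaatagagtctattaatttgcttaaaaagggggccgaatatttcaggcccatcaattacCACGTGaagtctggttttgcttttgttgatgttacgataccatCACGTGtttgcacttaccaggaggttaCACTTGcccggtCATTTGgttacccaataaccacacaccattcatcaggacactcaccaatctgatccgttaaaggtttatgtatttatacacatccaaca
5MAT (chr3:11400333-11400582, minus strand): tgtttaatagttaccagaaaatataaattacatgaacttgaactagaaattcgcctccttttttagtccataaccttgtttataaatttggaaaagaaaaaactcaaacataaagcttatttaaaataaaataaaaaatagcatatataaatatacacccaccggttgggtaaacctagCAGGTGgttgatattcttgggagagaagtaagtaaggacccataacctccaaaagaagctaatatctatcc
UGT75C1 (chr4:8123836-8124085, minus strand): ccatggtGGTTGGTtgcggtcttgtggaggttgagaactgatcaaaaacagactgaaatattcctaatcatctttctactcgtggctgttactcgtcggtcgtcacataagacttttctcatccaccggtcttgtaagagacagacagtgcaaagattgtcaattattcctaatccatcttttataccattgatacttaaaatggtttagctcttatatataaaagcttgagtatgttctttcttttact
TT8 (chr4:6181631-6181880, plus strand): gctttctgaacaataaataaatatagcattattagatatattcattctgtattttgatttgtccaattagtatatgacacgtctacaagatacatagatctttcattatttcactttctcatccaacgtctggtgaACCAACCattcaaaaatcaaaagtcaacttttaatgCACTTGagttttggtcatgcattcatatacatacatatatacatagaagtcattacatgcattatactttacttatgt
TTG2 (chr2:15644561-15644810, plus strand): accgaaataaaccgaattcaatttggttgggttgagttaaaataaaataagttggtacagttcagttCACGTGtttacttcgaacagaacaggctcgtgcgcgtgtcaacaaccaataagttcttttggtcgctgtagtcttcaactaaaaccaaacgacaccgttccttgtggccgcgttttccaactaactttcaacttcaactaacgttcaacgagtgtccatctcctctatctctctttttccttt

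Of the 7 late anthocyanin genes that fell, 4 held CANNTG in this window, 2 of them CACGTG, and 1 held an AC element. Over the 20690 genes tested 56.3% held CANNTG, 7.56% CACGTG and 6.23% an AC element. DFR carried CACGTG 14 bases before its start, GSTF12 and 5MAT 1 CANNTG each, and UGT79B1 carried 4 CANNTG, 2 of them CACGTG. LDOX and 3AT1 held neither kind of site in this window, and UGT75C1 held an AC element only. Of the 4 regulators that fell, 3 held CANNTG, 1 of them CACGTG, and 1 held an AC element. TT8 held 1 CANNTG and 1 AC element, TTG2 held CACGTG, GL3 held 1 other CANNTG, and MYBL2 held neither kind of site. GL2 and AT4G04750 held 1 CANNTG each, neither of them CACGTG. Over the 13 promoters read, 1 held both CANNTG and an AC element, beside 3.57% of all genes tested. These are letter matches and say nothing on whether a protein binds there.

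The early flavonoid genes, which build the flavonoid skeleton and the flavonols, had lower values in ttg1 that did not pass the threshold. Of 6 members, all tested, 0 changed, while all 6 had negative log2 fold changes with a median of −2.04, and 5 had an unadjusted p under 0.05. The entry enzyme CHS had 267.7 CPM in ttg1-23 and 99.4 in ttg1-24 against 319.0, 1128 and 1701 CPM (lowest, median, highest) in the other lines, so the groups did not overlap (log2 fold change −2.48, adjusted p = 0.0801). The hydroxylase F3'H had 5.64 and 6.98 CPM against 24.6, 103.7 and 252.8 CPM, again with no overlap (−4.26, adjusted p = 0.0581). F3H, whose gene overlaps another on the opposite strand by 1588 bases, had 48.8 and 34.3 CPM against 57.4 to 313.7 CPM. CHI had 16.6 and 11.1 CPM, and the groups overlapped only through the tt5 lines, mutant in CHI itself, at 4.13 and 4.49 CPM. The comparison lines other than tt5 ran from 32.3 to 87.6 CPM, above both alleles. DESeq2 called CHS (adjusted p = 0.0013), F3H (0.00626) and F3'H (3.96e-06) lower. Of the flavonol glycosylation list 0 of 3 tested members changed, and of the seed coat tannin list 0 of 3, with UGT78D1 at 26.03 and 20.9 CPM inside the 16.8 to 44.2 CPM of the other lines.

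Among 22 regulators of the complex and of flavonoid genes, 17 were tested and 4 fell (TTG2, GL3, MYBL2 and TT8), with none higher; of all genes tested 0.401% fell and 0.928% rose. The median log2 fold change of the 17 was −0.54. TTG2, a WRKY factor that acts downstream of TTG1 in trichomes and the seed coat, had 5.06 CPM in ttg1-23 and 3.97 in ttg1-24 against 15.3, 25.01 and 38.3 CPM. It fell by 2.43 (SE 0.31, adjusted p = 0.00677) and in ttg1-24 alone by 2.64 (adjusted p = 0.00734). TT8, the bHLH partner that is known to need the complex for its own expression, had 0.76 and 0.27 CPM against 6.79, 18.1 and 106.2 CPM. It fell by 5.58 (SE 1.33, adjusted p = 0.0492), and this call was kept in 9 of 26 settings, the reported fit among them, while the fall ranged from −6.76 to −4.68. The fits without the tt8 lines and against the enzyme loci only kept the call. The lowest and highest TT8 values came from tt8-11 and tt8-8, which carry insertions in TT8 itself. The 8 ban, tt1, tt3 and tt5 lines ran from 10.2 to 36.1 CPM.

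GL3, the bHLH partner best known from trichomes, had 1.699 and 1.09 CPM against 2.98 to 7.72 CPM and fell by 1.74 (adjusted p = 0.0217). MYBL2, a single-repeat MYB that represses anthocyanin genes, had 1.81 and 1.78 CPM against 5.64 to 18.8 CPM and fell by 2.58 (adjusted p = 0.0224). In all 4 genes the 2 alleles lay below every other line. The remaining bHLH partners overlapped the other lines: EGL3 had 5.06 and 3.69 CPM against 2.42 to 10.8 CPM, and MYC1 3.54 and 2.05 CPM against 2.06 to 6.51 CPM. The MYB activators did not pass either. PAP1, the main anthocyanin MYB of seedlings, had 21.2 and 14.5 CPM against 3.87 to 20.6 CPM (log2 fold change 0.83, adjusted p = 0.276), and PAP2 had 15.6 and 19.6 CPM against 10.53 to 51.65 CPM. LWD1 and LWD2, the closest WD40 relatives on the list, had log2 fold changes of 0.41 (adjusted p = 0.109) and 0.08 (adjusted p = 0.794). TT2, the seed coat MYB, was at 0 counts in both ttg1 libraries and at most 0.08 CPM elsewhere, and was not tested.

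**Figure D3:**
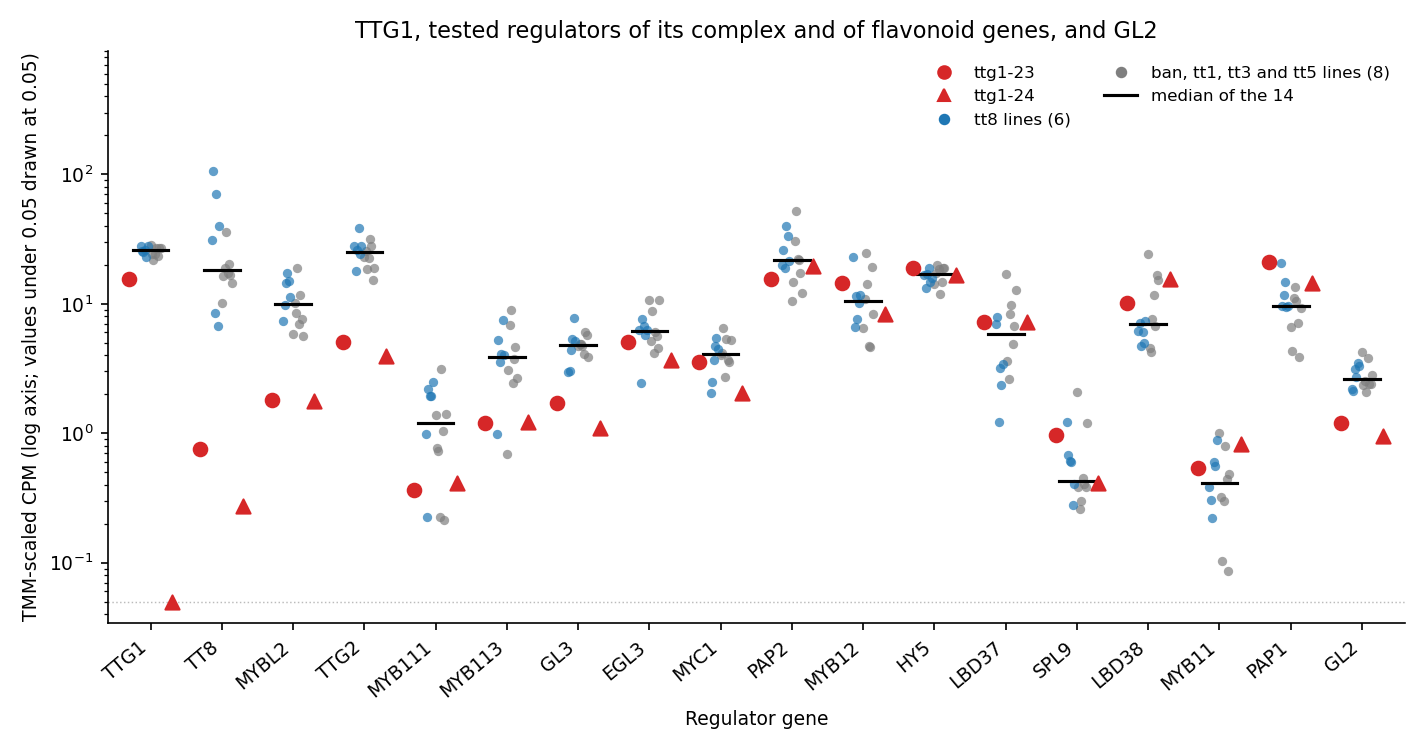
TMM-scaled CPM (vertical log axis, values under 0.05 drawn at 0.05) of TTG1, the other 16 regulators tested and GL2 in each library, with symbols for ttg1-23, ttg1-24, the tt8 lines and the other lines and a bar at the median of the 14. Both ttg1 points lie below all others for TTG1, TT8, MYBL2, TTG2, GL3 and GL2, and among or above the other lines for PAP1, PAP2, EGL3 and HY5.

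Among epidermal patterning genes GL2 fell. Of 18 listed members 11 were tested and 1 fell, where 0.401% of all genes did: GL2, the homeodomain gene that the complex switches on in trichomes and hairless root cells, had 1.19 CPM in ttg1-23 and 0.96 in ttg1-24 against 2.096, 2.62 and 4.23 CPM (log2 fold change −1.37, SE 0.31, adjusted p = 0.0396). The call on GL2 was kept in 12 of 26 settings, and GL2 overlaps a gene on the opposite strand by 198 bases and another on its own strand by 155. GL1, MYB106, MYB5 and the zinc finger gene GIS2 were at 0 in both ttg1 libraries and at most 0.06 CPM in any other, so these 4 could not be compared at this depth. MYB23, a trichome MYB that was tested, had 0.253 and 0.137 CPM against 0.0749 to 1.54 CPM (log2 fold change −0.75, adjusted p = 0.664). WER, the root epidermis MYB, had 0.29 and 0.27 CPM against 0 to 1.21 CPM, and the small MYB repressor CPC 2.78 and 2.74 CPM against 1.07 to 3.23 CPM. Root hair genes, whose products build the hairs of cells that lack this complex, did not pass the test: 0 of 7 tested regulators and 0 of 16 growth genes passed, with list medians of 0.18 and 0.29. Their levels varied widely in the other lines, as in RHS19 from 0.08 to 9.92 CPM, with 6.18 in ttg1-23 and 1.23 in ttg1-24. Of 10 seed mucilage genes 0 changed, with a median of 0.00 after rounding.

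Among seed maturation transcripts, 2 LEA genes were lower in ttg1. Of 13 seed storage and oil body genes, all tested, 2 fell, where 0.401% of all genes tested did. All 13 had negative log2 fold changes, with a median of −2.54, but the sign did not always place ttg1 below the median line. SESA1 had 17.57 and 12.45 CPM against a median of 11.06 and a highest of 241.8 CPM (log2 fold change −1.459). SESA2 had 10.05 and 4.104 CPM against a median of 2.277 and a highest of 212.6 CPM (−1.804). Both highest values were in tt1-4. In the remaining members both alleles lay below the median of the other lines. EM1 and EM6 encode late embryogenesis abundant (LEA) proteins of the dry seed. EM1 had 408.5 CPM in ttg1-23 and 316.9 in ttg1-24 against 664.8, 822.4 and 1389 CPM, and fell by 1.27 (SE 0.28, adjusted p = 0.037). EM6 had 155.6 and 161.4 CPM against 210.3, 553.1 and 909.4 CPM and fell by 1.79 (SE 0.42, adjusted p = 0.0458). The call on EM1 was kept in 16 of 26 settings and that on EM6 in 9 of 26, and leaving out most single libraries ended the latter. The oleosin OLEO2 was also below the range in both alleles, at 235.8 and 268.8 CPM against 312.7 to 2333 CPM, without passing the threshold (log2 fold change −2.54, adjusted p = 0.0705). The storage proteins overlapped the other lines: CRA1 had 76.8 and 83.4 CPM against 25.8, 212.8 and 6361 CPM, and the oleosin OLEO1 35.7 and 33.1 CPM against 12.3, 606.0 and 1863 CPM.

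Of 11 genes on the abscisic acid and cold list 10 were tested and 1 fell, again beside 0.401% of all genes: RD29B had 254.3 and 242.5 CPM against 440.5 to 1083 CPM and fell by 1.48 (adjusted p = 0.0275). RAB18, COR15A and LTI30 were below the range in both alleles without passing (adjusted p = 0.092, 0.111 and 0.15), while RD29A, COR47 and ERD10 lay within it. The annotated LEA family, picked after its values were seen, had 66 tested members, of which 4 fell and 3 rose, beside 0.401% and 0.928% of all genes tested. The 4 that fell were LEA7, AT3G02480, AT3G17520 and AT5G66780; AT3G02480 went from 536.2 to 1647 CPM in the other lines to 258.7 and 300.7 CPM, a fall of 1.99 (adjusted p = 0.0264). The 3 that rose, AT1G65690, AT5G06330 and AT2G46150, are annotated as hydroxyproline-rich glycoproteins of that family. Without the tt8 lines EM1, EM6 and RD29B were not called. Seed age and germination were not recorded in the labels, and their part in these differences was not tested.

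**Figure D4:**
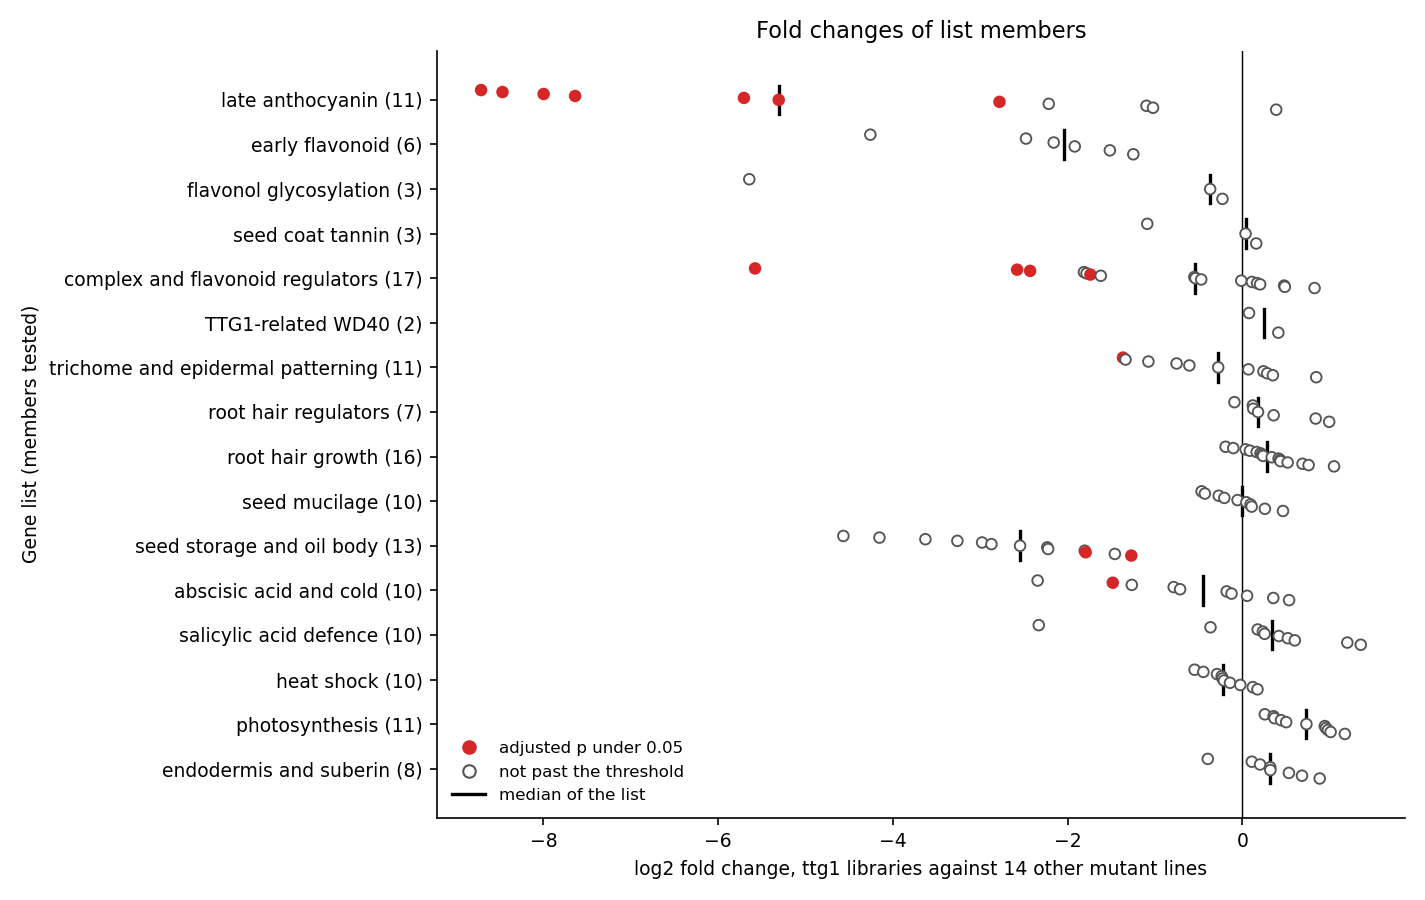
Log2 fold change (horizontal axis, ttg1 against the 14 other lines) of every tested member of the 16 gene lists (vertical axis, number tested in brackets), with members past adjusted p 0.05 filled in red and the list median as a bar. The late anthocyanin list reaches −8.71 with 7 red points, the seed storage list is wholly below 0 with 2, and the root hair, mucilage, heat shock and photosynthesis lists hold no red point.

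Other shared falls were of genes on none of the lists. AT4G04750, annotated as a transporter of the major facilitator superfamily, had 0.61 and 0.41 CPM against 3.83, 7.32 and 12.45 CPM and fell by 3.83 (SE 0.58, adjusted p = 0.00742). HSD6, a hydroxysteroid dehydrogenase of the steroleosin kind found on oil bodies, had 1.95 and 1.92 CPM against 3.92 to 25.9 CPM and fell by 2.62 (adjusted p = 0.0445), a call kept in 9 of 26 settings. AT4G07815, with no described product, had 3 counts in ttg1-23 and 0 in ttg1-24 against 0.46 to 3.05 CPM. The next 3 were named after their values were seen. BGLU7, a beta-glucosidase, had 8.42 and 9.17 CPM against 14.97 to 51.9 CPM and fell by 2.15 (adjusted p = 0.01). CYP81D11, a cytochrome P450, had 19.99 and 20.5 CPM against 32.2 to 178.4 CPM and fell by 2.34 (adjusted p = 0.0376). HDG1, a homeodomain relative of GL2, had 11.7 and 4.51 CPM against 13.8 to 22.1 CPM and fell by 1.12 (adjusted p = 0.0396).

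The largest shared rise with appreciable counts was in CDEF1, a cutinase-type lipase known from the emergence of lateral roots. It had 215.4 CPM in ttg1-23 and 91.9 in ttg1-24 against 1.20, 3.91 and 25.3 CPM in the other lines, and rose by 4.19 on the log2 scale (SE 0.79, adjusted p = 0.0217). LBD18, a transcription factor of lateral root formation, had 14.97 and 12.3 CPM against 0.50, 1.56 and 6.04 CPM and rose by 2.77 (SE 0.62, adjusted p = 0.0403). Both alleles stood above every other line in both genes, and tt8-7 was the highest of the 14. Without the tt8 lines neither was called, and the call on LBD18 was kept in 13 of 26 settings. IAA19, an auxin-induced repressor, and WES1 (GH3.5), which conjugates auxin, were named after their values were seen. IAA19 had 8.10 and 8.34 CPM against 1.81 to 5.07 CPM, a rise of 1.38 (adjusted p = 0.0275), and WES1 147.2 and 146.6 CPM against 28.8 to 96.4 CPM, a rise of 1.46 (adjusted p = 0.0382).

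The other large shared rises included a membrane protein gene and 2 germin-like genes. AT3G57950, annotated as a cotton fiber protein, had 9.18 and 24.4 CPM against 0.92 to 4.17 CPM and rose by 2.80 (SE 0.36, adjusted p = 0.00677). MLO12, a membrane protein that powdery mildew needs for entry, had 71.2 and 134.6 CPM against 5.64, 12.9 and 68.7 CPM and rose by 2.69 (adjusted p = 0.0294); the highest other line, tt8-7, came close to ttg1-23. The germin-like genes GLP9 and GLP6 rose by 2.42 (adjusted p = 0.00705) and 2.66 (adjusted p = 0.0168). In both, ttg1-24 was well above ttg1-23: GLP9 had 39.2 and 202.0 CPM against 13.2 to 33.0 CPM. The annotated germin family, picked after its values were seen, had 13 tested members. GLP9 and GLP6 were the only 2 called, where 0.928% of all genes tested rose. Of the 13, 8 had negative log2 fold changes, and the median was −0.28. Of the remaining 6 large shared rises, AT5G22430, EP1, AT2G36695 and AT2G23060 stayed under 4 CPM in every library. The other genes were AT2G36690, with 10.8 and 11.1 CPM against 0.46 to 7.49 CPM, and AT3G29970, with 118.5 and 343.7 CPM against 7.11 to 113.8 CPM. The log2 fold changes of these 6 ran from 2.58 to 4.48. The calls on AT2G23060 and AT2G36690 were kept in 8 of 26 settings each, and that on AT3G29970 in 13 of 26. AT5G22430, EP1 and AT2G36695 were at most 0.45 CPM in the other lines. They passed the filter on low counts only through the ttg1 libraries. The calls on AT5G22430, EP1, AT2G36695 and AT2G23060 did not hold with DESeq2.

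**Figure D5:**
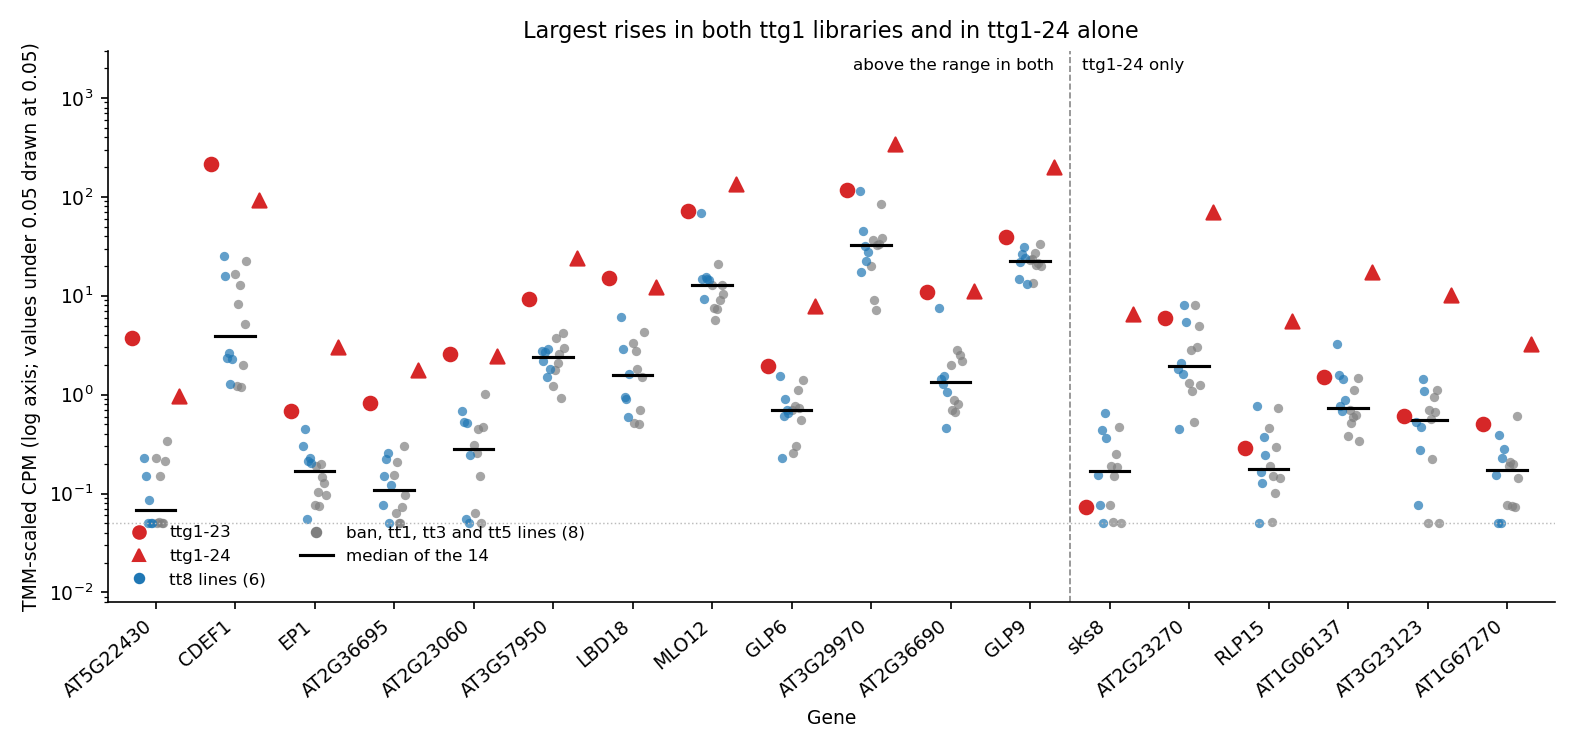
TMM-scaled CPM (vertical log axis, values under 0.05 drawn at 0.05) in each library of the 12 largest shared rises and, right of the dashed line, the 6 largest rises of ttg1-24 with ttg1-23 inside the range of the other lines. Left of the line both red points lie above all others; right of it only the ttg1-24 triangle does.

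The rises leaned on ttg1-24. Over the 192 genes that rose the median log2 fold change was 1.73 in ttg1-24 and 0.73 in ttg1-23, and 183 of the 192 were larger in ttg1-24. For the 83 falls the medians were −1.25 and −0.86. Taken alone against the 14 lines, ttg1-24 had 436 changed genes (2.11%), 373 higher (1.8%) and 63 lower (0.304%); ttg1-23 lay inside the range of the other lines for 289 of them, 270 higher and 19 lower. The largest of these rises were sks8, a multicopper oxidase relative, at 6.57 CPM in ttg1-24 against 0.07 in ttg1-23 and at most 0.65 elsewhere, and AT2G23270, at 70.3 CPM against 5.93 and at most 8.09. RLP15, a receptor-like protein, had 5.61 CPM in ttg1-24 against 0.29 in ttg1-23 and 0 to 0.76 CPM in the other lines. AT1G06137, AT3G23123 and AT1G67270 complete the 6, at 17.5, 10.1 and 3.28 CPM in ttg1-24 against 1.52, 0.61 and 0.51 in ttg1-23. The calls on sks8, RLP15 and AT1G67270 did not hold with DESeq2, and that on AT3G23123 not without the tt8 lines. Against the enzyme loci only, AT2G23270, RLP15, AT3G23123 and AT1G67270 were not called. AT1G06137 kept its call in 25 of 25 settings. Of the falls seen in ttg1-24 alone outside the TTG1 region, CYP78A6, a P450 that promotes seed and organ growth, had 0.27 CPM against 2.93 in ttg1-23 and 2.56 to 7.29 CPM elsewhere, while MSH4 and AGO5 had 0 counts against 0.63 to 2.20 and 0.45 to 1.79 CPM. These are close to the 0.410 CPM that 0 counts allow in ttg1-24; neither call held with DESeq2 or with libraries thinned to 1 depth, and that on AGO5 was kept in 6 of 25 settings. Leaving out tt8-7 brought the count for ttg1-24 to 751.

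Among the ttg1-24 rises, 3 more genes were named after their values were seen, and they stand for no group. CYP79B2, an entry enzyme of indole glucosinolates and camalexin, had 1400 CPM in ttg1-24 and 456.0 in ttg1-23 against 224.7 to 501.0 CPM (adjusted p = 0.00475 in ttg1-24). CYP71A12, of the same indole branch, had 217.2 and 47.1 CPM against 5.01 to 69.3 CPM (adjusted p = 0.0101), and PROPEP2, the precursor of a danger peptide, 18.19 and 3.83 CPM against 0.53 to 4.17 CPM (adjusted p = 0.00478). All 3 had ttg1-23 inside the range and ttg1-24 above it. Of 28 tested cysteine-rich receptor-like kinases 7 rose in ttg1-24 and 2 over both alleles; of 20 tested berberine bridge enzyme genes 5 rose in ttg1-24 and 3 over both. Both families were picked after their values were seen, and of all genes tested 1.8% rose in ttg1-24 and 0.928% over both alleles. Of the salicylic acid defence list 0 of 10 tested members changed over both alleles or in ttg1-24 alone. The list's median log2 fold change was −0.75 in ttg1-23, with 3 of 10 positive, and 0.83 in ttg1-24, with 9 of 10 positive. All 10 were higher in ttg1-24 than in ttg1-23. So were all 10 tested heat shock genes, beside 10192 of the 20690 genes tested. PR1, PR2 and PR5, the usual markers of this defence, stayed under 1 CPM everywhere. PBS3, which completes salicylic acid synthesis, had 84.8 CPM in ttg1-24 and 6.80 in ttg1-23 against 0.31 to 53.3 CPM. DMR6, whose product removes salicylic acid, is one of the genes missing in ttg1-24, and its part in these values cannot be told apart from that of the allele.

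The difference between the alleles was itself tested. It passed for 3 of 20690 genes (0.0145%), all lower in ttg1-24: TTG1 (adjusted p = 1.48e-08), AT5G24500 (2.78e-06) and DMR6 (0.0214), with 887 genes at an unadjusted p under 0.05. No rise passed the edgeR test of being larger in ttg1-24 than in ttg1-23. DESeq2 called 30 differences, 26 higher and 4 lower in ttg1-24.

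Taken alone, ttg1-23 gave 0 calls against the 14 lines with edgeR, with 1223 genes at an unadjusted p under 0.05, and 36 with DESeq2. The DESeq2 calls were 31 lower and 5 higher, and they included 7 of the 11 late anthocyanin genes, 1 early flavonoid gene (F3'H) and 4 of the regulators, TTG1 (log2 fold change −0.70, adjusted p = 0.00293), TT8, TTG2 and MYBL2. Also among them was TT10, a laccase of seed coat browning, which had 3.36 CPM in ttg1-23 against 7.96 to 20.6 CPM in the other lines and 9.57 CPM in ttg1-24. The highest values of ttg1-23 relative to the other lines lay in CDEF1 and AT5G22430, given above, and in AIR1 and AT4G12545, neighbouring genes of lipid-transfer type proteins. AIR1, known as auxin-induced in roots, had 20.8 CPM in ttg1-23, 2.33 in ttg1-24 and 0 to 3.86 CPM elsewhere, and AT4G12545 had 31.7, 5.34 and 0.13 to 6.14 CPM.

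A count of near-absent genes set each line against the others. Of loci with at least 2 CPM in the lowest of the lines compared with, 9 of 15473 in ttg1-23 and 13 of 15473 in ttg1-24 lay under 25% of that lowest line, and 8 were the same genes: DFR, LDOX, GSTF12, UGT79B1, 5MAT, UGT75C1, TT8 and AT4G04750. The ninth of ttg1-23 was F3'H; the other 5 of ttg1-24 were TTG1, its 3 neighbours and CYP78A6. Each of the 14 other lines, scored in the same way against the remaining 13, had 0 to 12 such loci with a median of 0, the 12 being in ban-6. In the other direction 4 genes of ttg1-23 and 43 of ttg1-24 stood over 4 times the highest other line, with none in common, against 0 to 19 in the other lines. This scan was set up after values were seen and has no test.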

How the data were processed

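RNA-seq counts per locus were used from 16 libraries, 1 per line, as deposited. Per the submitters' processing notes, reads were mapped with HISAT2 to TAIR10; per the labels' protocols, libraries were TruSeq Stranded mRNA. For the counting program, annotation version, strand setting and reads with several matches, nothing is stated in the labels or headers. The deposited counts were raw whole numbers. Of 33939 identifiers, the 32547 AT1G to AT5G loci were kept; the 1392 others held 0.00637% to 0.0204% of the counts. Low counts were filtered with filterByExpr, and 20690 genes were tested with the quasi-likelihood test of edgeR 4.0.16 (TMM scaling, R 4.3.3, Benjamini-Hochberg), as ttg1 against the 14 other lines, and with each allele as its own term, where 1 library is assumed to vary like the other lines. DESeq2 1.42.0 was an alternative. The fits were checked on simulated counts. Library totals ran from 8057534 to 27145377. Named genes were TTG1 and the 5 loci on either side, the flavonoid, regulator, patterning and WD40 list members, up to 4 called members of each other list, the 12 largest shared changes each way, the 6 largest each way of each allele where the other allele lay within range, and the called allele differences. Any other gene was named after its values were seen. The members and lists were chosen with earlier results of these data known. Gene positions and promoters came from the TAIR10.1 annotation and genome.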

Additional observations from a re-analysis of the deposited data

Results flagged for a closer look

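The difference between the alleles passed for 3 genes, each lower in ttg1-24 than in ttg1-23. They were TTG1 (15.5 CPM in ttg1-23 and 0 counts in ttg1-24, adjusted p = 1.48e-08), AT5G24500 (24.3 CPM and 0 counts, adjusted p = 2.78e-06) and DMR6 (44.5 CPM and 1 count, adjusted p = 0.0214), by edgeR's quasi-likelihood test. Counts on identifiers outside the AT1G to AT5G loci, which no comparison used, made up 0.0204% of the counts in ttg1-23 and 0.0146% in ttg1-24, against 0.00637% to 0.0178% in the other lines.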

How the results depend on the processing

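The 275 changed genes, the 210 shared by both alleles, the 0 of ttg1-23, the 436 of ttg1-24 and the 3 differing between alleles became 1136, 685, 36, 695 and 30 with DESeq2. The balance of calls turned with it: 192 higher and 83 lower became 509 and 627, and the allele difference went from 0 higher and 3 lower to 26 and 4. Without the tt8 lines 105 changed, 105 were shared and ttg1-24 had 224; against the enzyme loci only these were 23, 23 and 87, and the 23 were 8 higher and 15 lower, so that falls outnumbered rises. Without the files with Windows line ends 121 changed and 105 were shared, and with line ends as a term 123 and 99. Against SAIL lines only, an alternative chosen after seeing the data, ttg1-24 had 1606. Leaving out 1 library at a time gave 0 to 1076 changed genes, 108 to 932 shared, 0 to 3 for ttg1-23, 304 to 751 for ttg1-24 and 3 to 5 between alleles. The cause of these shifts was not tested. Among the single genes followed through the alternatives, none changed the sign of its log2 fold change once called. RLE scaling, no filter on low counts, the mean of the loci and thinning to 1 depth kept the changed, shared and ttg1-24 counts within 1.5 times. The genes called were not all the same. With the mean of the loci 160 of 199 called genes were among the 275, and 133 of 162 shared ones among the 210. Without the tt8 lines 67 of the 105 called genes were among the 275, and against the enzyme loci only 14 of the 23 were. No paired analysis was possible because each line is 1 library and the numbers in the labels are allele numbers. In ttg1-24, the shallowest library, a locus at 0 counts allows up to 0.410 CPM.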
